A study of Mus musculus with 27 samples.

Results

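Interleukin-6 family signalling is described here through 10 genes of the pathway, chosen by gene symbol: the ligand genes Il6, Lif and Il11, the receptor genes Il6st, Il6ra, Lifr and Osmr, the transcription factor gene Stat3 and the feedback inhibitor genes Socs2 and Socs3. All 10 were among the 19938 genes measured, through 12 probe sets. The cells were 3T3-L1, a mouse fibroblast line that forms fat cells in a hormone mixture, and carried either the empty pMIG vector or Flag-ISL1, a tagged LIM homeodomain transcription factor. The labels do not say whether these lines were clones or pools. After 2 days at confluence the cells received a mixture in 10% fetal calf serum of the glucocorticoid dexamethasone (250 nM), insulin (350 nM), biotin (400 nM) and isobutylmethylxanthine (0.5 mM), an agent that raises cAMP. Vector cells were taken at 0 h, before the mixture, and at 0.5, 1, 2, 4, 8 and 48 h, and Flag-ISL1 cells at 0 and 48 h, with 3 arrays in each of the 9 groups. The labels name no batch. The sample numbers of the 0 h groups, of those from 0.5 to 8 h and of the 48 h groups form separate runs. A difference between these runs could not be told apart from time in the comparisons with 0 h. Values are log2 intensities of 1 probe set per gene and cannot be compared between genes. A gene is called higher or lower, or said to pass the test, where limma's adjusted p over all 19938 genes was under 0.05.

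The cytokines of this family bind receptors that share the signalling chain gp130, the product of Il6st. Il6ra encodes the receptor chain for interleukin-6, Lifr that for leukemia inhibitory factor, the product of Lif, and Osmr that for oncostatin M. Receptor binding activates JAK kinases, which phosphorylate STAT3, and STAT3 switches on target genes, Socs3 among them, whose product blocks the same receptors. In fat tissue Il6 is known as a cytokine of stromal cells and macrophages, and Lif and Il11 as cytokines that act on fat cell formation.

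The arrays had medians between 8.19 and 8.32 and interquartile ranges between 2.95 and 3.38, and arrays of the same group correlated at 0.9931 or more across genes. The labelled cell type was borne out by its markers: all 9 fibroblast and preadipocyte markers lay between the 91.8 and 100 percentiles of the genes by mean level. Of the blood cell markers Ptprc lay at the 15.2 percentile, Adgre1 at 12.2, Itgam at 20.6 and Csf1r at 28.4, while Cd14 lay at 51.7, Cd68 at 54.4 and Lyz2 at 78.3. The array means over the 7 blood cell markers were 7.77 to 7.85 in vector cells at 0 h, 8.10 to 8.11 at 4 h and 7.94 to 7.96 at 8 h. From 0 to 4 h the mean of Cd68 went from 8.31 to 9.33 and that of Cd14 from 8.32 to 9.33, while Ptprc was at 6.31 and 6.24. Lyz2 went the other way in vector cells, from a mean of 12.05 at 0 h to 11.83 at 4 h and 11.39 at 8 h. At 4 h 2 of the 7 blood cell markers were higher and 1 lower than at 0 h (17.3% and 22.7% of all genes). Fat cell markers already had signal in vector cells at 0 h, with means of 11.78 for Pparg, 11.38 for Fabp4, 10.76 for Adipoq and 10.03 for Plin1. Cebpa was at 9.12 and Lep at 6.53. Array means over these 6 fat cell markers were 9.85 to 10.01 at 0 h and 9.51 to 9.60 at 8 h. Array means over the 9 fibroblast markers were 13.15 to 13.25 at 0 h and 12.57 to 12.61 at 8 h. The part of these shifts in the changes described was not tested. In bulk RNA, fewer cells of a type and less RNA per cell cannot be told apart. Isl1, the check of the construct, went against the labels at 48 h. At 0 h it read 7.37, 7.47 and 7.17 in vector cells and 12.64, 12.62 and 12.61 in Flag-ISL1 cells. At 48 h it read 12.79, 12.76 and 12.72 in the arrays labelled vector and 7.48, 8.01 and 7.47 in those labelled ISL1. The groups of 48 h are therefore named as labelled, with their Isl1 signal beside them, and the time course is described mainly up to 8 h.

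All 10 genes changed over the 6 vector groups from 0 to 8 h, where 51.7% of all genes did. They moved in an order. The ligand genes Il6 and then Lif rose within the hour and came down again. Il11, Il6ra, Socs3, Stat3, Osmr and Il6st were higher from 2 h through 8 h, with Osmr rising further from 2 to 4 h, and Socs2 was higher at 4 and 8 h. Lifr was lower at 8 h. The number of members higher than at 0 h was 1 of 10 at 0.5 h (0.777% of all genes), 2 at 1 h (2.78%), 8 at 2 h (10.9%), 9 at 4 h (17.3%) and 8 at 8 h (24.2%). The only member lower than at 0 h was Lifr at 8 h (21.9% of all genes were lower). Centring each array on its median raised the share of rises among all genes called. At 1 h the share went from 39.3% to 56% and at 2 h from 38.4% to 59%. By 4 h it was 61.2% in place of 43.3%, and for 8 h 64.8% in place of 52.5%. The centring turned the direction of no member that had been called.

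**Figure D1:**
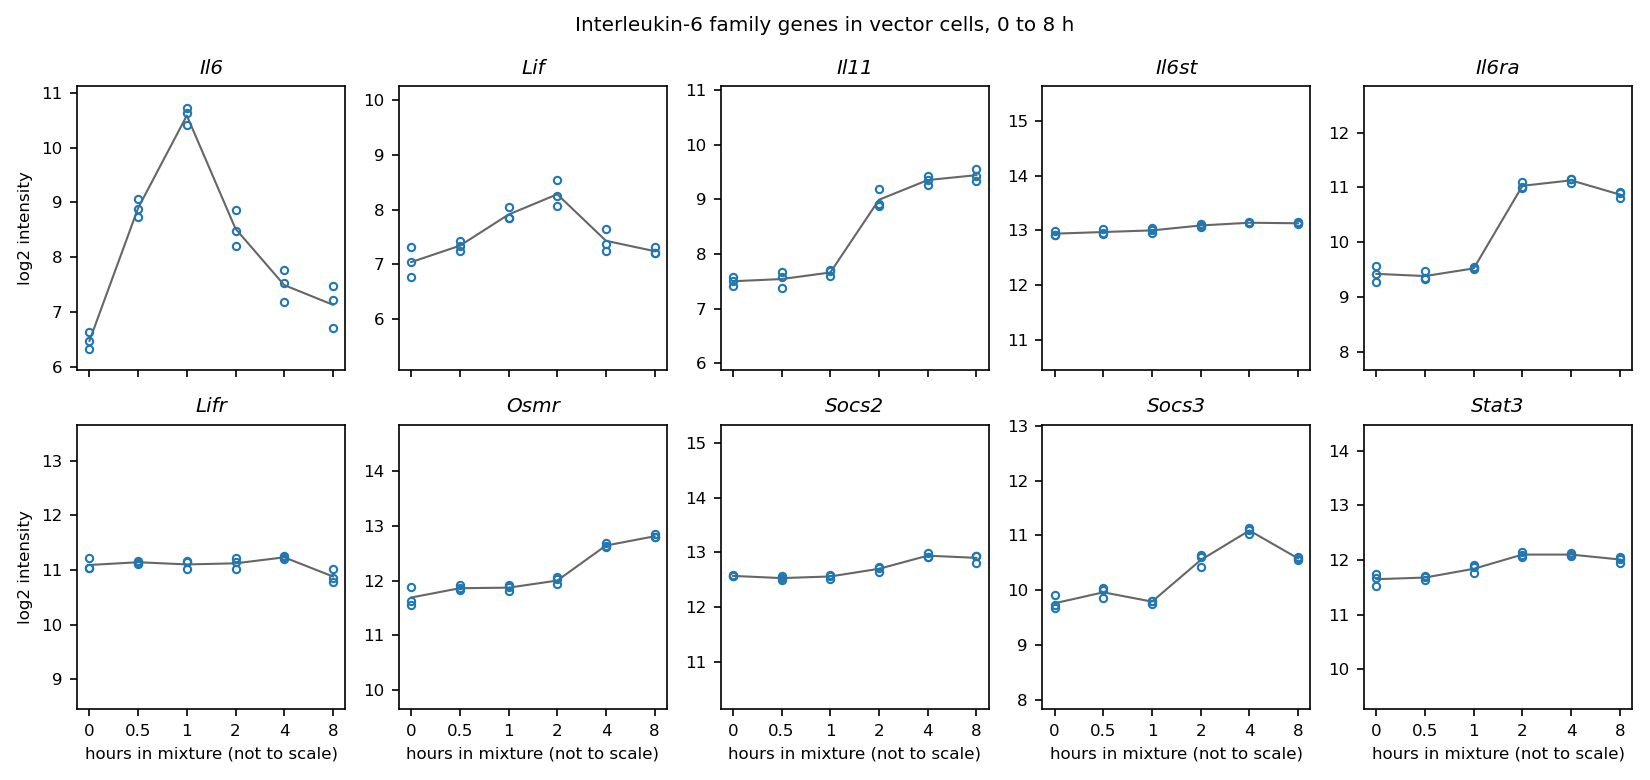
Log2 intensity of the 10 genes in vector cells (vertical axes, each spanning the same number of log2 units) against hours in the mixture (horizontal axis, not to scale). Circles are the 3 arrays of a time and lines join their means. Il6 peaks at 1 h with arrays between 10.42 and 10.72, Lif at 2 h, and Socs3 at 4 h.

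Il6 encodes interleukin-6 itself and was the only member already higher at 0.5 h. Its arrays read 6.63, 6.47 and 6.33 at 0 h, 8.88, 8.74 and 9.07 at 0.5 h, and 10.42, 10.72 and 10.63 at 1 h. They then read 8.48, 8.20 and 8.87 at 2 h, 7.18, 7.76 and 7.52 at 4 h, and 6.70, 7.47 and 7.22 at 8 h. Every array of the later times lay above all 3 arrays of 0 h, and the arrays of 1 h lay above those of all other groups. The rise over 0 h was 2.43 ± 0.176 (log2 change ± SE, n = 3 a group, adjusted p = 1.78e-10) at 0.5 h and 4.12 ± 0.176 at 1 h (adjusted p = 1.01e-15). The 0 h level (mean 6.47) lay below 6.88, under which 25% of all gene values fell, and whether the probe set was above background there is not known, so no fold is given. From 1 to 2 h Il6 fell by 2.07 (adjusted p = 1.2e-09) and from 2 to 4 h by a further 1.03 (adjusted p = 5.09e-05). It was still 0.66 ± 0.176 above 0 h at 8 h (adjusted p = 0.00306), and the step from 4 to 8 h (-0.36, adjusted p = 0.158) passed without the second array of 8 h (-0.53, adjusted p = 0.0362). In the order of levels 1 h stood first, the difference between 0.5 h and 2 h did not pass (0.38, adjusted p = 0.128), and from 4 h downward no neighbouring groups differed beyond the test.

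Lif, the gene of leukemia inhibitory factor, peaked later, at 2 h. It read 7.32, 6.77 and 7.05 at 0 h, 7.24, 7.42 and 7.34 at 0.5 h, 8.05, 7.85 and 7.84 at 1 h, and 8.25, 8.06 and 8.54 at 2 h. At 4 h it read 7.64, 7.38 and 7.25, and at 8 h 7.31, 7.20 and 7.20. The arrays of 1 and 2 h lay above all those of 0 h, while those of 0.5, 4 and 8 h overlapped them. Lif rose by 0.87 ± 0.131 at 1 h (adjusted p = 3.37e-05) and by 1.24 ± 0.131 at 2 h, a 2.36-fold change (adjusted p = 2.55e-08), and then fell by 0.86 from 2 to 4 h (adjusted p = 1.16e-05). Its excess at 4 h (0.38 ± 0.131, adjusted p = 0.0207) was lost without the second vector array of 0 h (0.24, adjusted p = 0.182) or the first of 4 h (0.27, adjusted p = 0.15). The step from 1 to 2 h (0.37, adjusted p = 0.0458) was also lost, without replicate 1 (0.38, adjusted p = 0.0846) or 3 of 2 h (0.24, adjusted p = 0.264), replicate 2 (0.34, adjusted p = 0.139) or 3 of 1 h (0.33, adjusted p = 0.149), or with the replicate number as a block (adjusted p = 0.0571).

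Il11, the gene of interleukin-11, moved later still and did not come down by 8 h. The arrays read 7.50, 7.57 and 7.42 at 0 h, 7.66, 7.38 and 7.57 at 0.5 h, and 7.59, 7.69 and 7.70 at 1 h. They read 8.87, 8.92 and 9.19 at 2 h, 9.26, 9.42 and 9.36 at 4 h, and 9.33, 9.55 and 9.43 at 8 h. No array of 2 h or later up to 8 h overlapped an array of 1 h or before. Il11 rose by 1.5 ± 0.0934 at 2 h (adjusted p = 1.2e-12), 1.85 ± 0.0934 at 4 h and 1.94 ± 0.0934 at 8 h, a 3.84-fold change (adjusted p = 3.09e-15). The step from 2 to 4 h passed (0.35, adjusted p = 0.00454) and that from 4 to 8 h did not (0.09, adjusted p = 0.571).

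The windows of 250 bases before the start of transcription are shown for the ligand genes and for Socs3, whose levels changed at least 2-fold and whose windows held a searched motif. They come from RefSeq on GRCm38.p6, which has windows for 9 of the 10 members. Capitals mark matches, on either strand, to 9 motifs chosen with textbook knowledge of the Il6 promoter in mind. The matches shown are an AP-1 site (TGANTCA), the cAMP response element less its last base (TGACGTC), a C/EBP site (TTGCNNAA), an NF-kB site and a STAT site (TTCNNNGAA). The Il11 window belongs to the downstream of its 2 RefSeq starts.
Il6 (chr5:30012864-30013113, plus strand): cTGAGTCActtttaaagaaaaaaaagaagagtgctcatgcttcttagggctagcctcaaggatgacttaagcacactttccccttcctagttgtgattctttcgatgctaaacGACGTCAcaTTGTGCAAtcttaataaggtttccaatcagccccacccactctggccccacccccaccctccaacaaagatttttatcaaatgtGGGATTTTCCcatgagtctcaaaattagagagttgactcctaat
Lif (chr11:4257318-4257567, plus strand): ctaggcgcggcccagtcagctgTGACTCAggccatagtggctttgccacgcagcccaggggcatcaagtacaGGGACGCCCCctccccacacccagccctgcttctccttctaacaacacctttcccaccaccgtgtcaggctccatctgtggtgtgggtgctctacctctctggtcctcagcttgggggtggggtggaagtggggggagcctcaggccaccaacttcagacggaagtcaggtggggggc
Il11 (chr7:4778142-4778391, minus strand): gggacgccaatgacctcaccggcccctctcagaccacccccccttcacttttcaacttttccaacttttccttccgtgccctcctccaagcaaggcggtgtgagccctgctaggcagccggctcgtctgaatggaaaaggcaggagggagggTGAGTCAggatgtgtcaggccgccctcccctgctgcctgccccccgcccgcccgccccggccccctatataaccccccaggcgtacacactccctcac
Socs3 (chr11:117969367-117969616, minus strand): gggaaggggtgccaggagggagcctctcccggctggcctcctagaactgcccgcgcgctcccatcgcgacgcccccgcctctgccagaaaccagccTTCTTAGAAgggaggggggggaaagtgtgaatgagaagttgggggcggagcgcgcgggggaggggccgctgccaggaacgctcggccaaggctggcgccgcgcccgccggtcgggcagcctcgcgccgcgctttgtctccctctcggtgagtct

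The Il6 window held an AP-1 match from -249 to -243 bases before the start, the shortened cAMP element from -137 to -131, a C/EBP match from -128 to -121 and an NF-kB match from -44 to -35. Lif held an AP-1 match from -228 to -222 and an NF-kB match from -178 to -169, Il11 an AP-1 match from -98 to -92, and Socs3 a STAT match from -154 to -146. Among the 32851 RefSeq windows of this length 6.75% held the AP-1 motif, 2.78% the shortened cAMP element, 9.56% the C/EBP motif, 7.25% the NF-kB motif and 7.02% the STAT motif. The full element (TGACGTCA), which contains the shortened one and stood in no member's window, was found in 1.55%. A short glucocorticoid receptor motif (TGTTCT), found in 16.1% of windows, matched in Stat3 alone, from -147 to -142, and a CArG box (1.47%) and a TATA box (TATAAA, 12.4%) matched in no member. These are matches of letters, and binding was not measured.

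**Figure D2:**
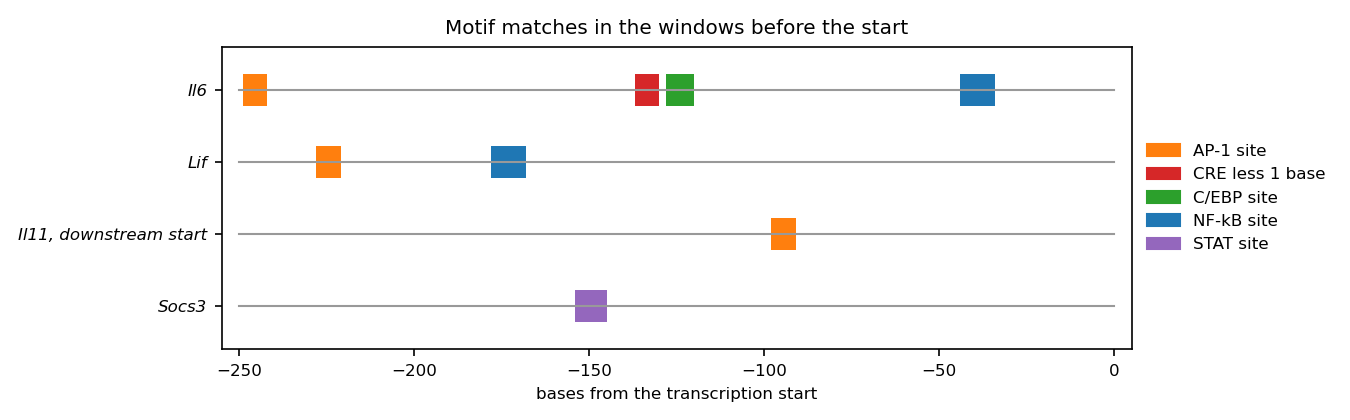
Motif matches in the printed windows of Il6, Lif, Il11 and Socs3 (rows), by distance in bases from the transcription start (horizontal axis). Coloured boxes are matches on either strand; the Il6 window holds 4 of them, from -249 to -35, Lif 2, and Il11 and Socs3 1 each.

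Il6ra had the largest rise of the 4 receptor genes Il6ra, Osmr, Il6st and Lifr. Its arrays read 9.57, 9.41 and 9.28 at 0 h, 9.35, 9.33 and 9.47 at 0.5 h, and 9.50, 9.55 and 9.52 at 1 h. They read 11.10, 10.99 and 11 at 2 h, 11.15, 11.15 and 11.09 at 4 h, and 10.91, 10.89 and 10.81 at 8 h. The rise thus fell between 1 and 2 h, with no overlap between the arrays of these times. It amounted to 1.61 ± 0.0716 at 2 h (adjusted p = 1.11e-15) and 1.71 ± 0.0716 at 4 h, a 3.27-fold change (adjusted p = 2.02e-16), and the level fell by 0.26 from 4 to 8 h (adjusted p = 0.00731). The levels of 2 and 4 h did not differ beyond the test (0.10, adjusted p = 0.368).

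Osmr, the gene of the oncostatin M receptor chain, rose in a later step. It read 11.89, 11.63 and 11.55 at 0 h, 12.06, 11.93 and 12.03 at 2 h, 12.68, 12.62 and 12.64 at 4 h, and 12.80, 12.79 and 12.85 at 8 h. The arrays of 0.5 and 1 h lay between 11.81 and 11.92, so only those from 2 h on stood clear of all 0 h arrays. Osmr was higher by 0.32 ± 0.0713 at 2 h (adjusted p = 0.00097), 0.96 ± 0.0713 at 4 h and 1.13 ± 0.0713 at 8 h, a 2.18-fold change (adjusted p = 6.83e-13). Most of this came between 2 and 4 h (0.64, adjusted p = 1.06e-07). Without the first vector array of 0 h, the highest of its group, Osmr also passed at 0.5 h (0.28, adjusted p = 0.0351) and at 1 h (0.29, adjusted p = 0.00663).

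The shared chain Il6st and the receptor gene Lifr changed least. Il6st read 12.99, 12.91 and 12.91 at 0 h, 13.13, 13.14 and 13.15 at 4 h, and 13.13, 13.16 and 13.11 at 8 h, so that the arrays of 4 and 8 h lay just above those of 0 h. The rises were 0.20 ± 0.0522 at 4 h (adjusted p = 0.00262) and 0.19 ± 0.0522 at 8 h (adjusted p = 0.00302). At 2 h Il6st was 0.15 ± 0.0522 higher (adjusted p = 0.0319), a call lost without any single one of 5 of the 6 arrays (adjusted p from 0.0601 to 0.105). Lifr read 11.21, 11.04 and 11.03 at 0 h and 10.77, 11.01 and 10.85 at 8 h, with arrays between 11.01 and 11.26 in the times between. It fell from 4 to 8 h by 0.35 (adjusted p = 0.0019) and at 8 h stood 0.22 ± 0.0817 below 0 h (adjusted p = 0.0329). The latter call was lost without the first array of 0 h (adjusted p = 0.16) or replicate 1 (adjusted p = 0.17) or 3 (adjusted p = 0.0864) of 8 h. Lifr's F test over the times was lost without replicate 1 (adjusted p = 0.148) or 3 of 8 h (adjusted p = 0.0842).

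Stat3 encodes the transcription factor on which these receptors converge. Its arrays read 11.75, 11.67 and 11.53 at 0 h, 11.76, 11.87 and 11.91 at 1 h, 12.09, 12.06 and 12.14 at 2 h, 12.08, 12.12 and 12.09 at 4 h, and 11.94, 12.06 and 12.02 at 8 h. From 2 h on they lay above all those of 0 h. Stat3 was higher by 0.45 ± 0.0669 at 2 h (adjusted p = 6.34e-06), 0.45 ± 0.0669 at 4 h and 0.36 ± 0.0669 at 8 h. At 1 h the difference of 0.19 ± 0.0669 missed the threshold (adjusted p = 0.0885) and passed without the first array of 0 h (0.24, adjusted p = 0.0466). It also passed with median centring (0.25, adjusted p = 0.0359), renewed quantile normalization (0.17, adjusted p = 0.0296) or a trended and robust prior (0.19, adjusted p = 0.025). Whether Stat3 was already higher at 1 h thus depended on the processing.

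Socs3, the feedback inhibitor of gp130 receptors, rose after Il6 had passed its peak. It read 9.91, 9.67 and 9.72 at 0 h, 9.86, 10.03 and 10.00 at 0.5 h, and 9.75, 9.81 and 9.81 at 1 h. It then read 10.42, 10.64 and 10.60 at 2 h, 11.03, 11.10 and 11.14 at 4 h, and 10.55, 10.59 and 10.60 at 8 h. At 1 h, where Il6 was highest, Socs3 overlapped its 0 h arrays (0.02 ± 0.0745, adjusted p = 0.967). It rose by 0.79 ± 0.0745 at 2 h (adjusted p = 3.62e-09) and by 1.33 ± 0.0745 at 4 h, a 2.51-fold change (adjusted p = 7.71e-14), and fell by 0.51 from 4 to 8 h (adjusted p = 8.31e-06). In the order of levels 4 h stood above 8 h, and 8 h and 2 h did not differ beyond the test (0.03, adjusted p = 0.821). A second, dimmer probe set of Socs3 read between 7.88 and 8.14 at 0 h and 8.42, 8.24 and 8.50 at 4 h. It rose by 0.35 ± 0.101 at 4 h (adjusted p = 0.00641) and did not pass at 2 h (0.02, adjusted p = 0.945) or 8 h (0.13, adjusted p = 0.301). The platform's table assigns the probe sets of Socs3 to different transcript accessions, and they disagree on the size of the rise.

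Socs2, a relative of Socs3 best known for restraining growth hormone signalling, moved less. It read 12.56, 12.56 and 12.59 at 0 h, 12.92, 12.91 and 12.99 at 4 h, and 12.81, 12.94 and 12.93 at 8 h. The later arrays all lay above those of 0 h, and the rise was 0.37 ± 0.056 at 4 h (adjusted p = 3.67e-06) and 0.33 ± 0.056 at 8 h (adjusted p = 2.13e-05). Its second probe set gave 0.40 ± 0.0655 at 4 h and 0.27 ± 0.0655 at 8 h, both past the test. At 2 h neither passed (0.13 ± 0.056, adjusted p = 0.101, and 0.17 ± 0.0655, adjusted p = 0.0516). The first passed there with median centring (0.21, adjusted p = 0.016) or a trended and robust prior (adjusted p = 0.0224). With renewed quantile normalization it did not (0.03, adjusted p = 0.718), so the start of the rise depended on the processing.

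**Figure D3:**
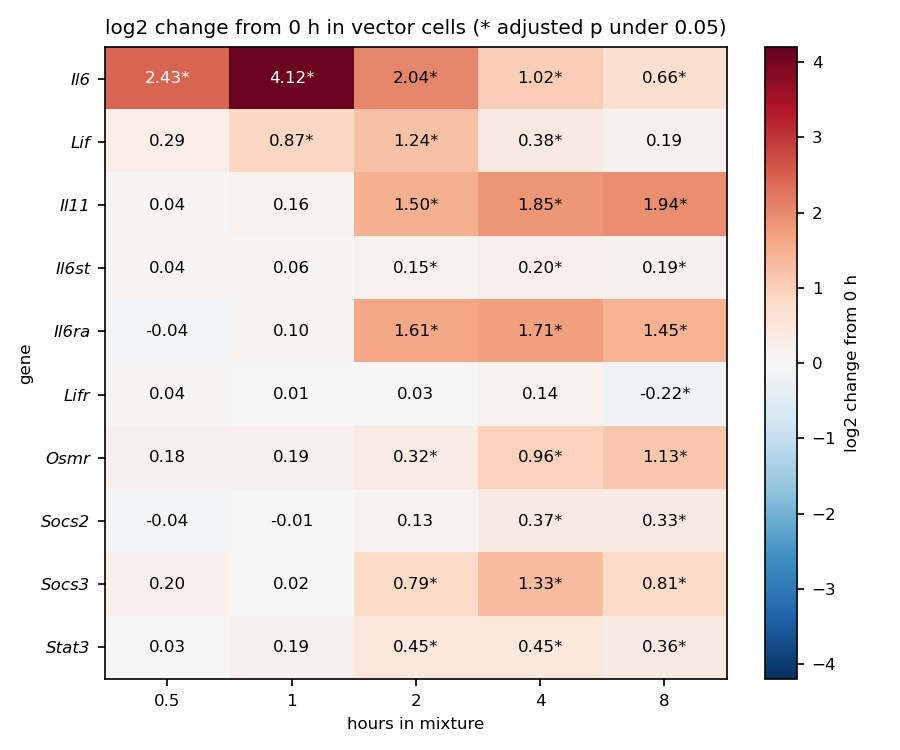
Log2 change from 0 h of the 10 genes (rows) in vector cells at 0.5, 1, 2, 4 and 8 h (columns); colour and numbers give the change and asterisks mark an adjusted p under 0.05. Only Il6 passes at 0.5 h, at 2.43, Lif joins it at 1 h, at 0.87, and Il11, Il6ra, Osmr and Socs3 pass from 2 h on.

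Step by step, 2 members rose from 0.5 to 1 h (1.84% of all genes rose), Il6 and Lif, and the Lif step was lost without the first array of 0.5 h (adjusted p = 0.0522) or of 1 h (adjusted p = 0.0553). From 1 to 2 h 5 rose (9.47%), Lif, Il11, Il6ra, Socs3 and Stat3, while Il6 fell (11.3%). From 2 to 4 h 4 rose (13.7%), Il11, Osmr, Socs2 and Socs3, and the ligand genes Il6 and Lif fell (14.2%). From 4 to 8 h none rose and 3 fell (10.2%), Il6ra, Lifr and Socs3.

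Across the 18 vector arrays from 0 to 8 h the profile of Il11 correlated with those of Il6ra (Pearson r = 0.97), Il6st (0.926), Socs2 (0.918), Socs3 (0.918), Stat3 (0.891) and Osmr (0.873). Il6 correlated with Lif at 0.611 and with the other members between -0.426 and 0.265. These points are arrays of 6 time groups, so the values describe shared time courses. Among the other 2314 genes that passed the F test with a range of group means of at least 1, the profiles most like that of Il6 were Egr3 (r = 0.978), Spry2 (0.965) and Sgk1 (0.959). Spry2, which encodes a brake on receptor kinase signalling, went from 8.71 at 0 h to 11.35 at 1 h and 8.68 at 8 h. Nearest to Lif were Cpeb2 (0.92), Ell2 (0.914) and B3gnt2 (0.902), to Il11 Cobll1 (0.992), Tubb2a (0.991) and Rasa3 (0.991), and to Il6ra Glis1 (0.993), Gfpt2 (0.99) and Spsb1 (0.988). Nearest to Osmr were Ank3 (0.987), Lrrc8d (0.985) and Sipa1l1 (0.984), and to Socs3 Sh3pxd2b (0.98), Ttc39b (0.979) and Lrrc8c (0.979).

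Of the other ligand and receptor genes of the family 7 of 10 were measured. At 2 h 2 of them were higher (10.9% of all genes), as were Il11 and Il6ra. Clcf1 encodes a cytokine that acts through the ciliary neurotrophic factor receptor, and Cntfr encodes the binding chain of that receptor. Clcf1 read 10.07, 9.77 and 9.75 at 0 h, 11.32, 11.31 and 11.31 at 2 h, and 11.97, 11.76 and 11.80 at 8 h, without overlap. It rose by 1.45 ± 0.0822 at 2 h and 1.98 ± 0.0822 at 8 h (adjusted p = 1.84e-16). Cntfr read 9.74, 9.55 and 9.55 at 0 h, 10.78, 10.95 and 10.79 at 2 h, 11.66, 11.46 and 11.62 at 4 h, and 10.92, 11.07 and 10.85 at 8 h. It rose by 1.97 ± 0.1 at 4 h, a 3.92-fold change (adjusted p = 1.06e-14), and its level fell by 0.64 from 4 to 8 h. Ctf1, the cardiotrophin gene, fell by 0.65 at 4 h, the only 1 of the 7 that was lower (22.7% of all genes). Osm, Il27, Ebi3 and Il27ra passed at no time up to 8 h. Osm is the direct neighbour of Lif among the protein-coding genes of chromosome 11. The change of Osm from 0 h was 0.01 at 1 h and 0.01 at 2 h, where Lif was highest. Its mean at both times was 6.70, below 6.88, under which 25% of all gene values fell. Whether the Osm probe set was above background is not known.

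Of 19 measured genes of signal transduction and its brakes, none passed at 0.5 h and 2 fell at 1 h (4.29% of all genes were lower). At 2 h 3 were higher and 7 lower, where 10.9% of all genes were higher and 17.5% lower. At 4 h they were 6 and 10 (17.3% and 22.7% of all genes), and at 8 h 7 and 10 (24.2% and 21.9%), with medians of -0.03, -0.26 and -0.34 beside 0.0024, 0.025 and 0.071 over all genes. Socs5, another member of the inhibitor family, fell by 1.28 at 2 h and 1.38 at 4 h, and Pias3, which encodes an inhibitor of STAT3, fell by 1.13 and 1.18. The adaptor gene Gab1 fell by 0.91 at 2 h, Cish, the inhibitor gene nearest to Socs2, by 0.94 at 8 h, and Stat5b by 1.15 at 4 h. The kinase genes Jak1 and Jak2, named after their values were seen, rose by 0.54 and 0.44 at 2 h. Tyk2, a further kinase gene of the JAK family named in the same way, fell by 0.43 at 2 h and 0.64 at 4 h. The JAK genes thus did not move one way. Socs7 rose by 0.75 at 4 h and 0.69 at 8 h, and Socs1, also named after its values were seen, by 0.35 and 0.43, so the inhibitor genes of the SOCS family did not move one way.

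Of 27 measured genes known as STAT3 targets, 11 were higher at 0.5 h (0.777% of all genes), 16 at 1 h (2.78%), 20 at 2 h (10.9%), 22 at 4 h (17.3%) and 23 at 8 h (24.2%). None was lower at 0.5 h, and 1, 2, 2 and 3 were lower at the later times, where 4.29%, 17.5%, 22.7% and 21.9% of all genes were. Their medians were 0.18, 0.75, 1.13, 1.05 and 0.70, beside 0.0098, -0.017, 0.0024, 0.025 and 0.071 over all genes. Many are also known targets of other factors, and what moved them was not tested. The activity of STAT3 was not measured. At 0.5 h the largest rises were in Fos, Junb, Cebpd and Gadd45g, of 4.39, 2.46, 2.39 and 1.78. At 4 h they were in Fgl2, Lcn2, Serpina3n and Myc, of 5.06, 4.49, 3.40 and 3.19. Irf1, named after its values were seen, fell by 2.21 at 2 h.

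**Figure D4:**
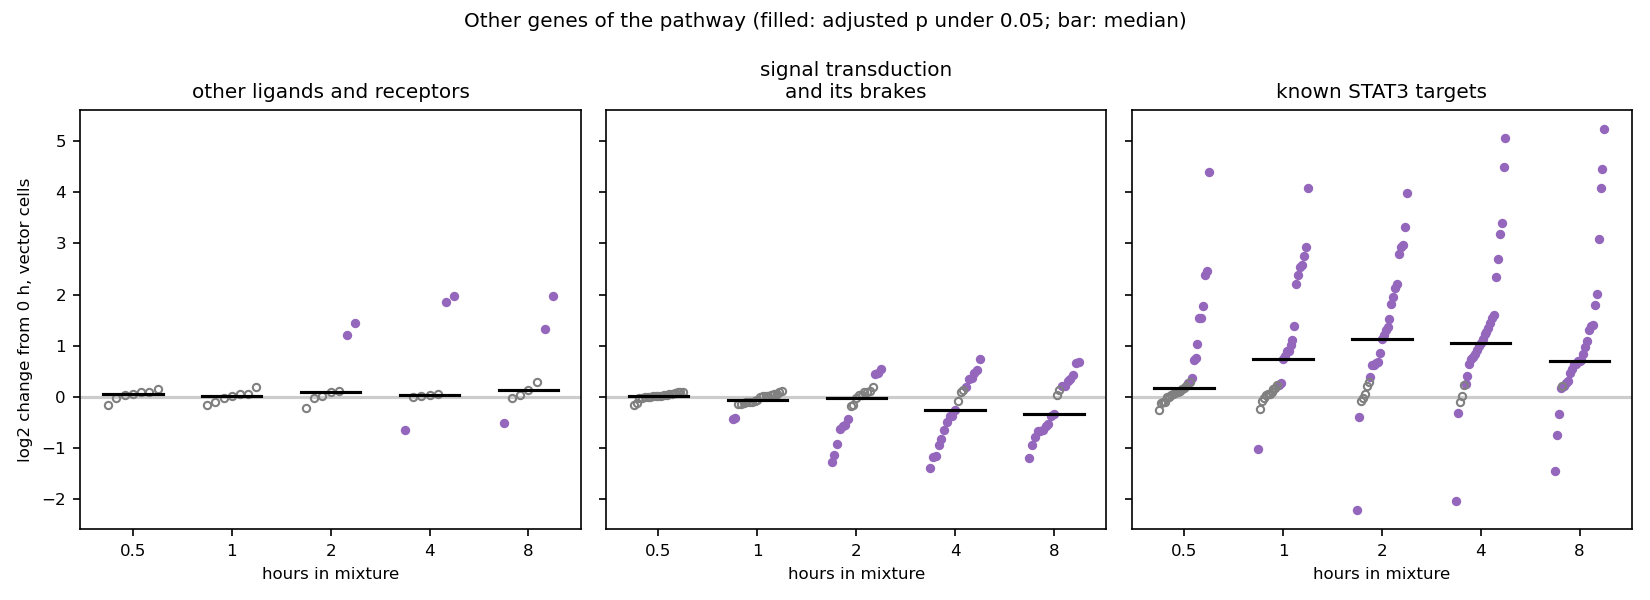
Log2 change from 0 h in vector cells (vertical axis) of the other measured pathway genes at each time (horizontal axis), in 3 panels: 7 other ligand and receptor genes, 19 of signal transduction and its brakes, and 27 known STAT3 targets. Each point is a gene, filled where the adjusted p is under 0.05, and bars are medians; the target median is 1.13 at 2 h and that of signal transduction is -0.34 at 8 h.

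Before the mixture was added, 2 of the 10 members were higher in Flag-ISL1 than in vector cells (15.3% of all genes) and 2 lower (10.4%). For so few genes these counts were near the shares of all genes. Those higher were the receptor genes Lifr and Osmr, and those lower the inhibitor genes Socs2 and Socs3. Lifr read 11.41, 11.42 and 11.50 in Flag-ISL1 cells against 11.21, 11.04 and 11.03 in vector cells (0.35 ± 0.0817, adjusted p = 0.00171). Osmr read 12.10, 11.98 and 12.12 against 11.89, 11.63 and 11.55 (0.38 ± 0.0713, adjusted p = 0.000158). The groups did not overlap for either gene, and Osmr and Lifr are direct neighbours among the protein-coding genes of chromosome 15. Socs2 read 12.21, 12.16 and 12.11 against 12.56, 12.56 and 12.59, which is lower by 0.41 on the log2 scale (adjusted p = 2.23e-06), and its second probe set gave -0.30 ± 0.0655 (adjusted p = 0.000772). Socs3 read 9.54, 9.47 and 9.54 against 9.91, 9.67 and 9.72 (-0.25 ± 0.0745, adjusted p = 0.0145). That call was lost without the first vector array (-0.17, adjusted p = 0.122) or the second Flag-ISL1 array (-0.22, adjusted p = 0.0663). For Il6, Lif, Il11, Il6st, Il6ra and Stat3 the differences lay between -0.16 and 0.18 and did not pass. Il6ra passed without the third vector array (-0.23, adjusted p = 0.0264) or after renewed quantile normalization (-0.25, adjusted p = 0.00238). The second probe set of Socs3 did not pass (-0.25 ± 0.101, adjusted p = 0.0785). Markers moved with the construct here too. The array means over the 6 fat cell markers were 8.07 to 8.15 in Flag-ISL1 and 9.85 to 10.01 in vector cells, those over the fibroblast markers 12.78 to 12.82 and 13.15 to 13.25, and those over the blood cell markers 6.94 to 7.04 and 7.77 to 7.85. Of the blood cell markers Lyz2, the lysozyme gene, named after its values were seen, had a mean of 7.21 in Flag-ISL1 and 12.05 in vector cells. Ptprc was at 6.17 and 6.31 and Adgre1 at 5.99 and 5.94. The part of these markers in the differences was not tested.

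At 48 h 7 of the 10 members were lower in the arrays labelled ISL1, which had low Isl1 signal, than in those labelled vector, which had high Isl1 signal (13.8% of all genes were lower). None of the 10 was higher. By Isl1 signal the same differences read as higher in the arrays with high signal. Lifr read 10.45, 10.12 and 10.31 in the arrays labelled ISL1 and 11.14, 10.92 and 11.06 in those labelled vector (-0.75 ± 0.0817, adjusted p = 5.17e-08). Osmr read 11.75, 11.57 and 11.68 against 12.28, 12.31 and 12.29 (-0.62 ± 0.0713, adjusted p = 1.13e-07). Il6st read 12.93, 12.96 and 12.91 against 13.41, 13.39 and 13.28 (-0.42 ± 0.0522, adjusted p = 3.9e-07). These groups did not overlap. Of the other members called, Il6ra differed by -0.39, Socs3 by -0.34, Il11 by -0.27 and Stat3 by -0.24. The second, dimmer probe set of Socs3 did not pass (-0.03 ± 0.101, adjusted p = 0.876), so its 2 probe sets disagree here. Among the members, Il6 (-0.41, adjusted p = 0.0907), Lif and Socs2 (0.15, adjusted p = 0.0523) did not pass. The Il11 call (adjusted p = 0.0325) was lost without any single one of 4 of the 6 arrays, replicate 1 or 3 labelled ISL1 or replicate 2 or 3 labelled vector (adjusted p from 0.0885 to 0.214). Il6 passed without the first array labelled ISL1 (-0.54, adjusted p = 0.0403). Socs2 passed without the second labelled ISL1 (0.17, adjusted p = 0.0445) or the third labelled vector (0.19, adjusted p = 0.0208). Fat cell markers moved with these groups: the array means over 6 of them were 10.97 to 11.06 in the arrays labelled ISL1 and 9.36 to 9.44 in those labelled vector. The means over the blood cell markers were 7.18 to 7.22 and 7.03 to 7.06, with Lyz2 at 7.57 and 6.76. Their part in the differences was not tested.

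**Figure D5:**
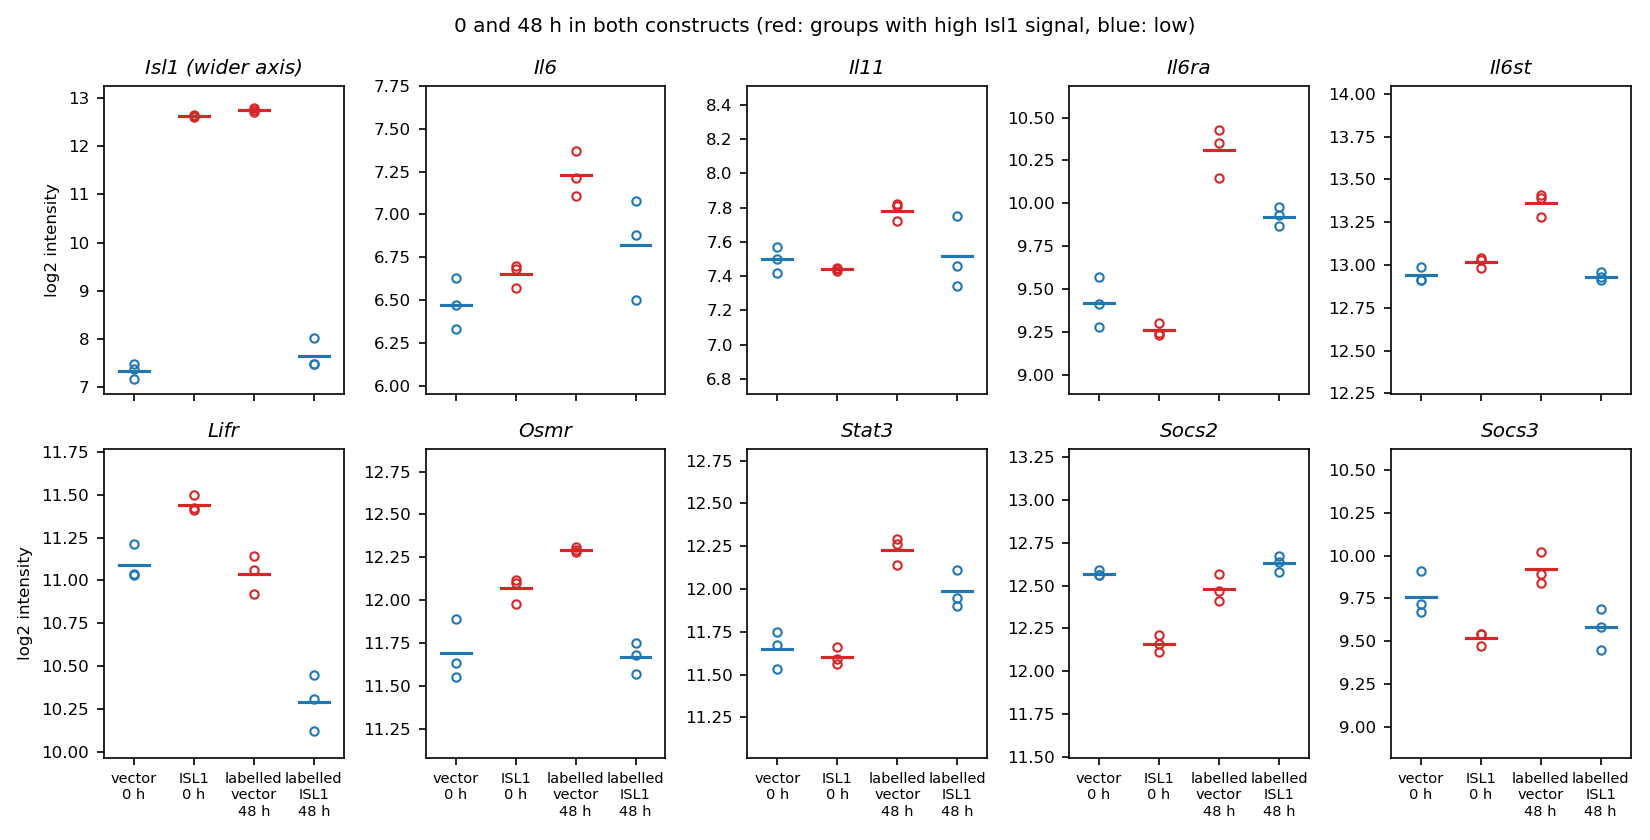
Log2 intensity of Isl1 and 9 members (vertical axes; the member axes span the same number of log2 units) in the 4 groups of 0 and 48 h, by their labels (horizontal axis). Circles are arrays and bars means; red marks groups with high Isl1 signal, blue low. Osmr and Lifr are higher in the red group of each time, and Isl1 is at 12.72 or more in the arrays labelled vector at 48 h.

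Against vector cells at 0 h, the arrays labelled vector at 48 h had 6 members higher (18.1% of all genes). Il6ra was higher by 0.89 ± 0.0716, Il6 by 0.76 ± 0.176, Osmr by 0.61 ± 0.0713, Stat3 by 0.58 ± 0.0669, Il6st by 0.42 ± 0.0522 and Il11 by 0.29 ± 0.0934. The Il11 call (adjusted p = 0.0159) was lost without replicate 2 (adjusted p = 0.0505) or 3 of 48 h (adjusted p = 0.0514) or replicate 3 of 0 h (adjusted p = 0.0735). Socs3 (0.15, adjusted p = 0.122) passed without the first array of 0 h (0.22, adjusted p = 0.0278). The arrays labelled ISL1 had 3 members higher and 2 lower than Flag-ISL1 cells at 0 h (20.9% of all genes were higher and 22.2% lower). Il6ra was higher by 0.67 ± 0.0716, Socs2 by 0.47 ± 0.056 and Stat3 by 0.38 ± 0.0669, and Lifr fell by 1.15, a 2.22-fold change (adjusted p = 6.23e-12), and Osmr by 0.40. Markers moved with these changes as well. The fibroblast marker means went from 13.15 to 13.25 at 0 h to 12.07 to 12.19 in the arrays labelled vector, and Lyz2 from a mean of 12.05 to 6.76. In the arrays labelled ISL1 the fat cell marker means were 10.97 to 11.06, against 8.07 to 8.15 in Flag-ISL1 cells at 0 h. The part of these markers was not tested.

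If the labels of the 48 h groups are exchanged, so that each construct keeps its Isl1 signal, the comparisons with 0 h change. Vector cells then had 2 members higher at 48 h than at 0 h, Il6ra (0.50, adjusted p = 1.57e-06) and Stat3 (0.34, adjusted p = 0.000148), and 2 lower, Lifr (-0.80, adjusted p = 6.14e-09) and Socs3 (-0.19, adjusted p = 0.0431). In that reading 21.3% of all genes were higher and 20% lower, so the members were called about as often as all genes. Flag-ISL1 cells had 8 members higher and 1 lower, where 14.2% of all genes were higher and 19% lower. Il6ra rose by 1.05, Stat3 by 0.63 and Il6 by 0.58, and Lifr fell by 0.40. The difference between the constructs changed from 0 to 48 h for 4 members as labelled, upward for Socs2 (0.56; 12.7% of all genes) and downward for Lifr (-1.1), Osmr and Il6st (16.3% of all genes). With the labels exchanged 6 members passed, Il6st, Il6ra, Lifr, Socs2, Socs3 and Stat3, all upward (11.4% of all genes). Under both readings Il6ra and Stat3 were higher at 48 h than at 0 h in both constructs.

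Cntfr showed the widest differences of the family between the constructs. It read 8.09, 7.65 and 8.01 in Flag-ISL1 cells against 9.74, 9.55 and 9.55 in vector cells at 0 h (-1.70 ± 0.1, adjusted p = 7.34e-13). At 48 h it read 10.71, 10.64 and 10.67 in the arrays labelled ISL1 and 7.84, 8.00 and 7.87 in those labelled vector (2.77 ± 0.1, a 6.83-fold difference, adjusted p = 3.36e-17). At both times the lower group was the one with high Isl1 signal, and also the one with lower fat cell marker means. These array means were 8.07 to 8.15 in Flag-ISL1 and 9.85 to 10.01 in vector cells at 0 h. At 48 h they were 9.36 to 9.44 in the arrays labelled vector and 10.97 to 11.06 in those labelled ISL1. The part of these markers in the Cntfr differences was not tested. Clcf1 did not differ beyond the test at 0 h (-0.17, adjusted p = 0.162) and was lower by 0.37 in the arrays labelled ISL1 at 48 h (adjusted p = 0.00086). Of the signal transduction genes at 0 h, 2 of 19 were higher and 4 lower in Flag-ISL1 cells (15.3% and 10.4% of all genes), with Socs5 at -0.40, Jak2 at -0.30, Cish at -0.27 and Stat5a at -0.27. At 48 h 3 were higher and 9 lower in the arrays labelled ISL1 (14% and 13.8% of all genes). Adam10, which encodes a protease that sheds membrane receptors, was at -0.94, Cish at 0.62, Jak1 at -0.41 and Jak2 at -0.41.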

How the data were processed

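RNA from 27 samples was hybridised to Affymetrix mouse gene arrays. The authors deposited log2 intensities made with RMA, per the submitters' processing notes, which name no software. The base of the log is not in the labels and was read from the range, 3.35 to 14.85. The values, with 0 missing, entered the tests unchanged. Of 28853 probe sets 21789 had 1 gene symbol in the platform's table, 1621 several and 5443 none. The probe set with the highest mean was kept per gene.

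limma 3.58.1 (R 4.3.3) fitted 1 mean per group to all 27 arrays (prior degrees of freedom 6.56), with two-sided tests, 14 comparisons and an F test, and Benjamini-Hochberg adjustment over 19938 genes. The fit was tested on simulated data. The labels' design text calls the arrays biological triplicates. With 3 arrays a group, their number limits the precision. Replicate numbers did not pair the samples.

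The members and the gene lists (10, 20 and 28 genes, of which 7, 19 and 27 were measured) were chosen with earlier results of these data known. Named from each list were at most 4 genes past the test per comparison, by size of change, and for each member with a range of at least 1 the 3 most correlated genes. Blood cell, fat cell and fibroblast markers are textbook ones. The endothelial markers lay between 6.79 and 7.23 as array means over all groups, and the epithelial ones between 7.36 and 7.75. Promoter windows are RefSeq's on GRCm38.p6; gene neighbours come from the RefSeq table of that assembly.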

Additional observations from a re-analysis of the deposited data

Results flagged for a closer look

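For 4 members the difference between the constructs changed from 0 to 48 h by the interaction test, upward in 12.7% and downward in 16.3% of all genes. As labelled, the effect of ISL1 at 48 h less that at 0 h was -1.10 ± 0.115 for Lifr (adjusted p = 2.61e-08), with 0.35 at 0 h and -0.75 at 48 h. For Osmr it was -1 ± 0.101 (adjusted p = 1.15e-08), with 0.38 at 0 h and -0.62 at 48 h. For Il6st it was -0.50 ± 0.0738 (adjusted p = 5.5e-06), and for Socs2 0.56 ± 0.0792 (adjusted p = 3.69e-06), with -0.41 at 0 h and 0.15 at 48 h. These values rest on the 48 h labels, which the Isl1 signal contradicts. With the 48 h labels exchanged 6 members passed, all upward, where 11.4% of all genes passed upward and 13.2% downward. The values were then 0.40 for Lifr (adjusted p = 0.0106), 0.34 for Il6st (adjusted p = 0.00073), 0.26 for Socs2 (adjusted p = 0.0148) and 0.24 for Osmr (adjusted p = 0.0858).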

How the results depend on the processing

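The alternatives tried were median centring, renewed quantile normalization, leaving out the dimmest 25% of genes, averaging or testing apart a gene's probe sets, a trended and robust prior, fitting only the groups compared, the replicate number as a block, leaving out each array, and exchanging the 48 h labels. Of 2320 values of single members under them, 17 reversed, all with the labels exchanged. The difference between the 48 h groups changes sign by construction when their labels are exchanged. It became 0.75 for Lifr, 0.62 for Osmr, 0.42 for Il6st, 0.39 for Il6ra, 0.34 for Socs3, 0.27 for Il11 and 0.24 for Stat3. The change from 0 h became -0.02 for Osmr, which did not pass (adjusted p = 0.861), and -0.19 for Socs3 in vector cells. In Flag-ISL1 cells it became 0.34 for Il6st and 0.22 for Osmr. The change of the ISL1 effect became 0.59 for Socs3, 0.55 for Il6ra, 0.40 for Lifr, 0.34 for Il6st and 0.29 for Stat3. For Osmr it became 0.24, which did not pass (adjusted p = 0.0858). The members called in Flag-ISL1 cells from 0 to 48 h went from 5 to 9. The trended prior called 4 members at 1 h against 2, Stat3 and Osmr being added.

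Leaving out 1 array moved the members called to 2 in place of 1 at 0.5 h, and to 4 in place of 2 at 1 h, both without the first vector array of 0 h. The step from 0.5 to 1 h kept 1 to 2 and that from 4 to 8 h 3 to 4; the other counts stayed within 1.5 times. Same-numbered arrays of a pair of groups correlated between -0.633 and 0.619 in their deviations, and in 4 of 36 pairs of groups all 3 were over 0.1. With the replicate block the count changed only for the step from 1 to 2 h, from 6 to 5 members. Median centring raised the share of rises among all genes called to 61.4% in place of 49.2% in the arrays labelled vector at 48 h, and to 70.4% in place of 51% for the step between 0.5 and 1 h. The small changes of Il6st at 2 h (0.15) and of Lifr at 8 h did not survive every scaling: renewed quantile normalization gave 0.08 for Il6st (adjusted p = 0.134) and median centring -0.15 for Lifr (adjusted p = 0.151). The cause was not tested.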

Other observations

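Between the constructs the STAT3 targets went both ways. At 0 h 5 of 27 were higher and 7 lower in Flag-ISL1 cells, where 15.3% of all genes were higher and 10.4% lower, so the share higher was near that of all genes: the chemokine gene Ccl2 was higher by 1.73 and Birc5, a mitotic and survival gene, by 1.39, while Vegfa was at -1.04 and Cebpd at -0.77. In the arrays labelled ISL1 at 48 h, which had low Isl1 signal, 8 were higher and 11 lower than in those labelled vector (14% and 13.8% of all genes). The acute phase gene Saa3 was at -2.29 and Lbp, which encodes a lipopolysaccharide binding protein, at -1.52. Gadd45g was higher by 1.10 and Serpina3n, an acute phase protease inhibitor gene, by 1.03. The medians were -0.04 at 0 h and -0.10 at 48 h.

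Of the 32851 promoter windows, 1 held the AP-1, shortened cAMP, C/EBP and NF-kB motifs together, and that was the window of Il6. These 4 were the motifs, of the 9 searched, that matched in the Il6 window, so Il6 was in the count by construction. Textbook sites of Il6 had also guided the choice of the 9.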
